A study of Homo sapiens with 6 samples.

Results

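Ribosome biogenesis factors are the proteins that make ribosomal RNA and assemble it with ribosomal proteins, and 58 of their genes were followed here in Jurkat cells moved into a collagen gel. The genes were chosen by name, from RNA polymerase I through the nucleolar processing machinery to the factors that finish each ribosomal subunit. Of these 58 genes, 52 had a probe set, 1 each, among the 17687 genes measured. NOP56, DKC1, WDR43, BOP1, GNL3 and DDX18 were not analysed here. Jurkat is an established human line of T cell leukaemia (T-ALL). In the 3D group, 3 samples of Jurkat cells were mixed into bovine type I collagen at 1.7 mg/mL, which set for 1 h and was then covered with medium for 2 h. In the suspension group, 3 control samples of the same line had no gel. Both groups were grown in RPMI with serum, carried no genetic change named in the labels, and were compared at 3 h on 1 array per sample.

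In the nucleolus, RNA polymerase I copies the ribosomal DNA into a long precursor RNA. Small nucleolar RNPs modify this precursor, and the small subunit processome folds and cuts it while it is still being made. Separate sets of factors then carry the small (40S) and the large (60S) subunit to the cytoplasm. The pathway consumes a large share of a growing cell's resources, and MYC is a well known activator of its genes, in leukaemic T cells among others.

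Expression is the deposited log2 value of a probe set, so that a difference of 1 is a 2-fold difference, and all differences are 3D minus suspension. The medians of the 6 arrays over all probe sets lay between 5.55 and 5.64 and precision is limited by having 6 arrays. The 13 T cell markers had median levels of 9.08 to 9.36 in 3D and 9.06 to 9.37 in suspension. Their differences had a median of -0.21, with 4 higher and 9 lower, and medians of -0.04, -0.18 and -0.22 in replicates 1, 2 and 3. At an unadjusted p under 0.05 (limma) 1 of the 13 was lower (7.69%, against 3.97% of all genes) and 0 higher (against 5.9%). The part of this in the results on biogenesis genes was not tested. The 29 measured markers of B, myeloid, stromal, epithelial or endothelial, and erythroid cells had medians of 4.44 to 4.80 in 3D and 4.45 to 4.60 in suspension. The mean levels of these 29 ran from 2.59 to 8.28, the highest in a B cell marker, and 6 had a mean of at least 6. All 52 biogenesis genes had means above 6, from 6.14 to 10.93. The labels call the replicates biological without saying what separated them, so p-values measure the spread between these samples. Less RNA per cell and fewer cells of a given state cannot be told apart in such samples.

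None of the 52 genes passed the test between 3D and suspension, and as a group they were balanced around no difference. With limma, Benjamini-Hochberg adjusted over all genes at a threshold of 0.05, 0 of 52 were called and 0 of 17687 genes overall (0%), with a smallest adjusted p of 0.423 among the biogenesis genes. In 3D 27 measured higher (51.9%, beside 47.4% of all genes) and 25 lower, with a median log2 difference of 0.04, against -0.02 over all genes, and the median was -0.02 when the arrays were quantile normalized once more. Differences ran from -0.33 for NOP16 to 0.49 for NOP58. The median size of a difference was 0.20, the median standard deviation (SD) within groups was also 0.20, and 0 genes reached 2-fold. In simulated data the same fit found 8% of changes of 0.5 log2, so real changes of the sizes seen here would mostly go uncalled.

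**Figure D1:**
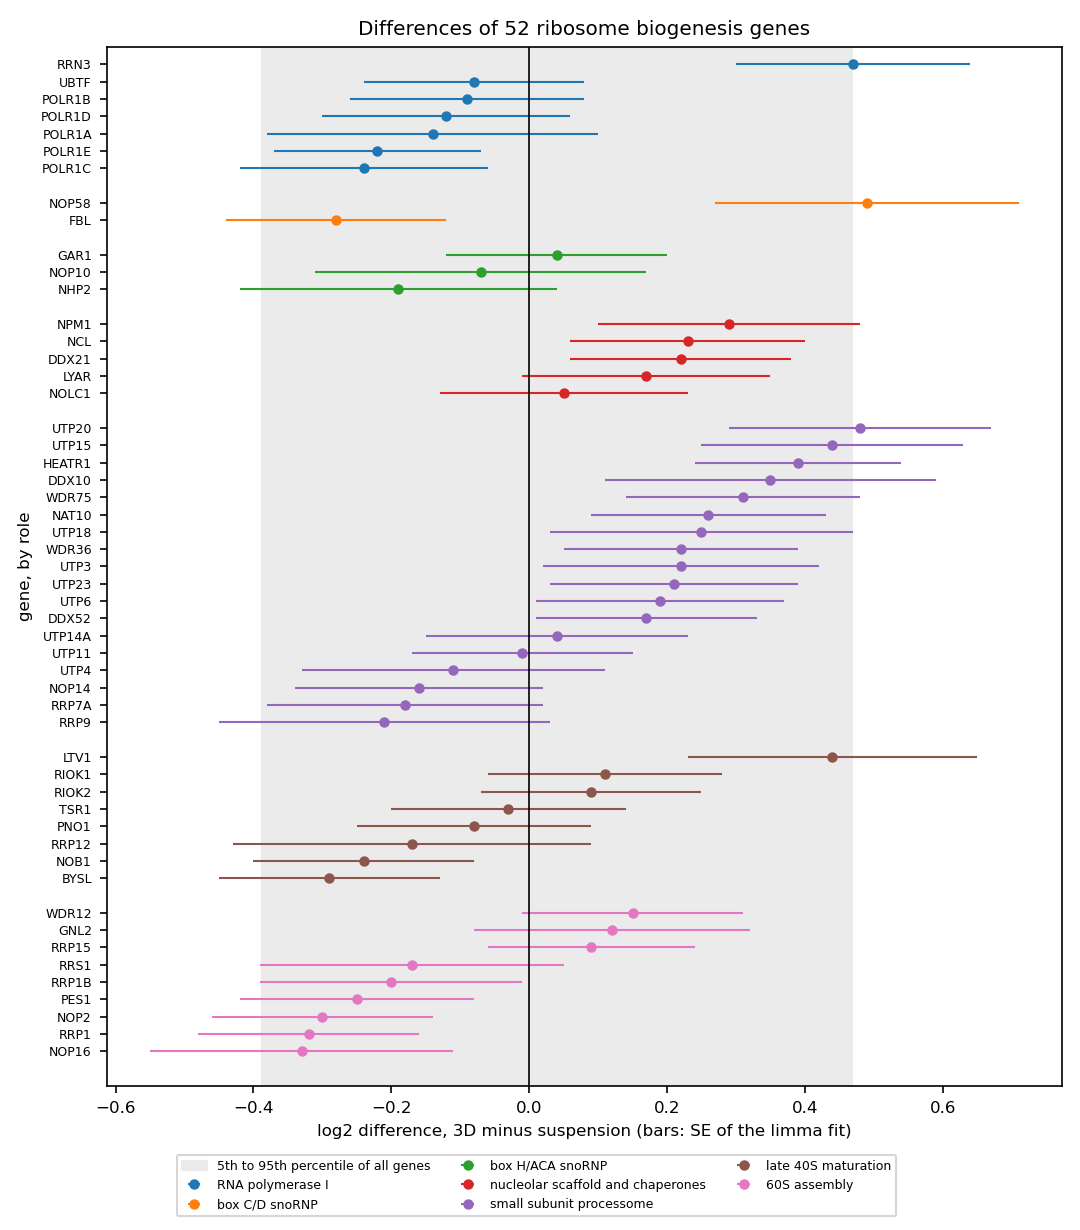
Log2 differences (3D minus suspension, horizontal axis) of the 52 genes, grouped by role and ordered within each role. Points are differences and bars are standard errors of the limma fit; the grey band runs from the 5th to the 95th percentile of all genes, -0.39 to 0.47. NOP58, RRN3 and UTP20 lie highest, at 0.49, 0.47 and 0.48, and NOP16 and RRP1 lowest, at -0.33 and -0.32.

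At an unadjusted p under 0.05 (limma) there were 4 genes, RRN3, HEATR1, UTP20 and UTP15, all higher in 3D. They are 7.69% of the 52, beside 5.9% of all genes higher in 3D at that level. On the lower side the count was 0, beside 3.97% of all genes. The groups did not overlap for 4 genes with 3D above (7.69%, against 8.28% of all genes) and for 5 genes with 3D below (9.62%, against 8.03%). These shares lie near those of the whole array, on both sides. The 3D array was the higher one in all 3 replicate numbers for 15 genes (28.8%, against 20.3% of all genes) and the lower one for 12 (23.1%, against 19.8%). The whole array includes dimmer genes: 8342 of the 17687 have a mean of at least 6, as all 52 do. The shares above among those 8342 genes alone are not given here.

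A fit that took the replicate number as a block again called 0 of the 52 genes, while 16 of all genes passed (0.0905%), all higher in 3D. At an unadjusted p under 0.05 it gave 6 higher (11.5%, against 10% of all genes) and 1 lower, RRP1 (1.92%, against 7.36%). Keeping in that fit only the 8342 genes with a mean of at least 6 gave 5 calls among the 52, RRN3, NOP58, UTP20, UTP15 and LTV1, all higher in 3D, with adjusted p of 0.0182 to 0.0433. That is 9.62% of the 52, beside 10.6% of all genes called higher in the same fit, and the 0 genes called lower stand beside 3.78%. Its unadjusted p was under 0.05 for 8 higher genes (15.4%, against 20%) and 4 lower ones (7.69%, against 12%). Leaving out a replicate pair moved the 5 to 1 without replicate 1, to 3 without replicate 2 and to 0 without replicate 3. The share called was thus near that of the array, and the calls depended on single pairs.

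RNA polymerase I and its factors had a median difference of -0.12, with 1 gene higher and 6 lower in 3D. RRN3 encodes the initiation factor, also called TIF-IA, that brings the polymerase to the ribosomal DNA promoter. It measured 9.52, 9.60 and 9.72 in 3D replicates 1, 2 and 3, against 9.21, 8.90 and 9.31 in suspension. All 3D values lay above all suspension values. The difference was 0.47 ± 0.17 (SE), or 1.39-fold, with an unadjusted p of 0.0174 and an adjusted p of 0.423 (limma). RRN3 has pseudogene copies in the genome, and probe sequences were not used here, so a share of the signal may come from them.

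The polymerase subunits in this role measured slightly lower in 3D. POLR1E, a subunit that aids initiation and elongation, had 7.82, 7.69 and 7.84 in 3D, against 8.12, 7.92 and 7.96 in suspension. The groups did not overlap, and the difference was -0.22 ± 0.15 (SE; limma, adjusted p 0.638). POLR1C, a subunit shared with RNA polymerase III, had the lowest difference of this role, -0.24 ± 0.18, with groups that overlapped, and ranged from -0.41 without 3D replicate 1 to -0.14 without 3D replicate 3. The large catalytic subunits POLR1A and POLR1B stood at -0.14 ± 0.24 and -0.09 ± 0.17, POLR1D at -0.12 ± 0.18, and UBTF, the factor that keeps ribosomal genes open, at -0.08 ± 0.16. Each of these 6 differences was under 2 standard errors. The 12 other polymerase I genes measured, outside this role, were balanced, with 6 higher, 6 lower and a median of -0.02. Of these 12, 3 were higher and 1 lower at an unadjusted p under 0.05 (limma). Among them the subunit POLR1F was higher, at 0.50 ± 0.19 (SE; limma, adjusted p 0.44). The subunit POLR1G was lower, at -0.39 ± 0.16 (SE; limma, adjusted p 0.489). Neither had groups that overlapped.

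The measured proteins of the box C/D small nucleolar RNP, which methylates ribosomal RNA, stood on opposite sides. NOP58, a core scaffold protein, measured 10.38, 10.75 and 10.97 in 3D, against 9.79, 10.39 and 10.45 in suspension. Within each replicate number the 3D value was higher, by 0.59, 0.36 and 0.52, and both arrays of replicate 1 were low. The groups overlapped because 3D replicate 1 lay below suspension replicates 2 and 3. The difference was 0.49 ± 0.22 (SE; limma, adjusted p 0.509 without the block and 0.138 with it), and it was 0.28 without suspension replicate 1. FBL, fibrillarin, the methyltransferase of the same particle, measured 9.81, 10.02 and 9.79 in 3D, against 10.15, 10.08 and 10.23 in suspension. Every 3D value of FBL lay below every suspension value, by as little as 0.06 in replicate 2, and the difference was -0.28 ± 0.16 (SE; limma, adjusted p 0.563).

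In the box H/ACA particle, which turns uridines of ribosomal RNA into pseudouridine, the 3 measured proteins differed little. GAR1 had a difference of 0.04 ± 0.16 (SE), NOP10 of -0.07 ± 0.24 and NHP2 of -0.19 ± 0.23. NOP10 and NHP2 varied widely within 3D, where replicate 3 was lowest for both. The difference of NHP2 was -0.02 without 3D replicate 3, and also without suspension replicate 1, and -0.39 without 3D replicate 1. NOP10 had 10.70, 10.37 and 9.71 in 3D, against 10.56, 10.14 and 10.31 in suspension.

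The 5 abundant nucleolar proteins all measured higher in 3D, by 0.05 to 0.29, and none passed the test. After a further quantile normalization NOLC1 turned to just under 0 and the other 4 stayed above it. NPM1, nucleophosmin, a histone and ribosome chaperone, measured 11.14, 11.05 and 11.03 in 3D, against 10.43, 10.84 and 11.07 in suspension. Its 3D values were tight, suspension replicate 1 was the lowest of the 6, and suspension replicate 3 lay within the 3D range. The difference was 0.29 ± 0.19 (SE; limma, adjusted p 0.606), and the difference was 0.12 without suspension replicate 1. NCL, nucleolin, had 0.23 ± 0.17, DDX21, an RNA helicase of the nucleolus, 0.22 ± 0.16, LYAR 0.17 ± 0.18 and NOLC1, a chaperone of small nucleolar RNPs, 0.05 ± 0.18. By replicate number 1, 2 and 3 the median of the 5 was 0.20, 0.30 and -0.03.

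The small subunit processome, the largest role, held 3 of the 4 genes at an unadjusted p under 0.05 (limma). They are 16.7% of the 18 processome genes measured, beside 5.9% of all genes, dimmer ones included, higher in 3D at that level. Of the 18 genes 13 were higher and 5 lower in 3D, with a median difference of 0.21. The median was above 0 in each replicate number, at 0.15, 0.24 and 0.10. With a further quantile normalization 12 were higher and 6 lower (median 0.16), and with arrays centred on their medians 14 and 4 (0.23). The 24 other processome genes measured, outside the 52, did not lean this way: 10 were higher and 14 lower, with a median of -0.02. At an unadjusted p under 0.05 (limma) 1 was higher and 3 lower (16.7%, against 9.87% of all genes, 5.9% higher and 3.97% lower). HEATR1, a large scaffold protein needed for transcription of ribosomal DNA and early cutting, measured 9.61, 9.45 and 9.56 in 3D, against 9.15, 9.11 and 9.21 in suspension. It was the steadiest of the 52 genes, with an SD within groups of 0.07, and the groups were separate. Its difference was 0.39 ± 0.15 (SE), or 1.31-fold, with an unadjusted p of 0.0262 and an adjusted p of 0.454 (limma). The standard error exceeds what its own spread would give, because limma shares the spread between genes.

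UTP20, a very large helical repeat protein of the same particle, measured 8.39, 7.78 and 7.84 in 3D, against 7.62, 7.41 and 7.54 in suspension. The groups were separate, with 3D replicate 1 far above the others. The difference was 0.48 ± 0.19 (SE), or 1.40-fold (limma, adjusted p 0.467), and 0.29 without 3D replicate 1. UTP15, which helps couple transcription to processing, measured 8.01, 7.50 and 8.02 in 3D, against 7.21, 7.47 and 7.51 in suspension. Here 3D replicate 2 lay inside the suspension range, and the difference was 0.44 ± 0.19 (SE; limma, adjusted p 0.496).

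WDR75, a partner of UTP15 in the same subcomplex, measured 10.09, 10.07 and 10.04 in 3D, against 9.91, 9.45 and 9.92 in suspension. The groups did not overlap, and suspension replicate 2 was the low value. The difference was 0.31 ± 0.17 (SE; limma, adjusted p 0.573), and 0.15 without suspension replicate 2. NAT10, the enzyme that acetylates cytidines of ribosomal RNA, measured 9.32, 9.35 and 9.06 in 3D, against 9.19, 8.90 and 8.87 in suspension. Its groups overlapped, with a difference of 0.26 ± 0.17 (SE; limma, adjusted p 0.616). DDX10, DDX52, UTP3, UTP6, UTP14A, UTP18, UTP23 and WDR36 had differences from 0.04 to 0.35. On the lower side RRP9, which binds the U3 small nucleolar RNA, stood at -0.21 ± 0.24, and NOP14, RRP7A, UTP4 and UTP11 at -0.18 to -0.01. RRP9 depended on single arrays. It had 7.31, 7.38 and 6.53 in 3D, against 7.59, 7.12 and 7.14 in suspension, and a difference of 0.06 without 3D replicate 3 and of -0.06 without suspension replicate 1.

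**Figure D2:**
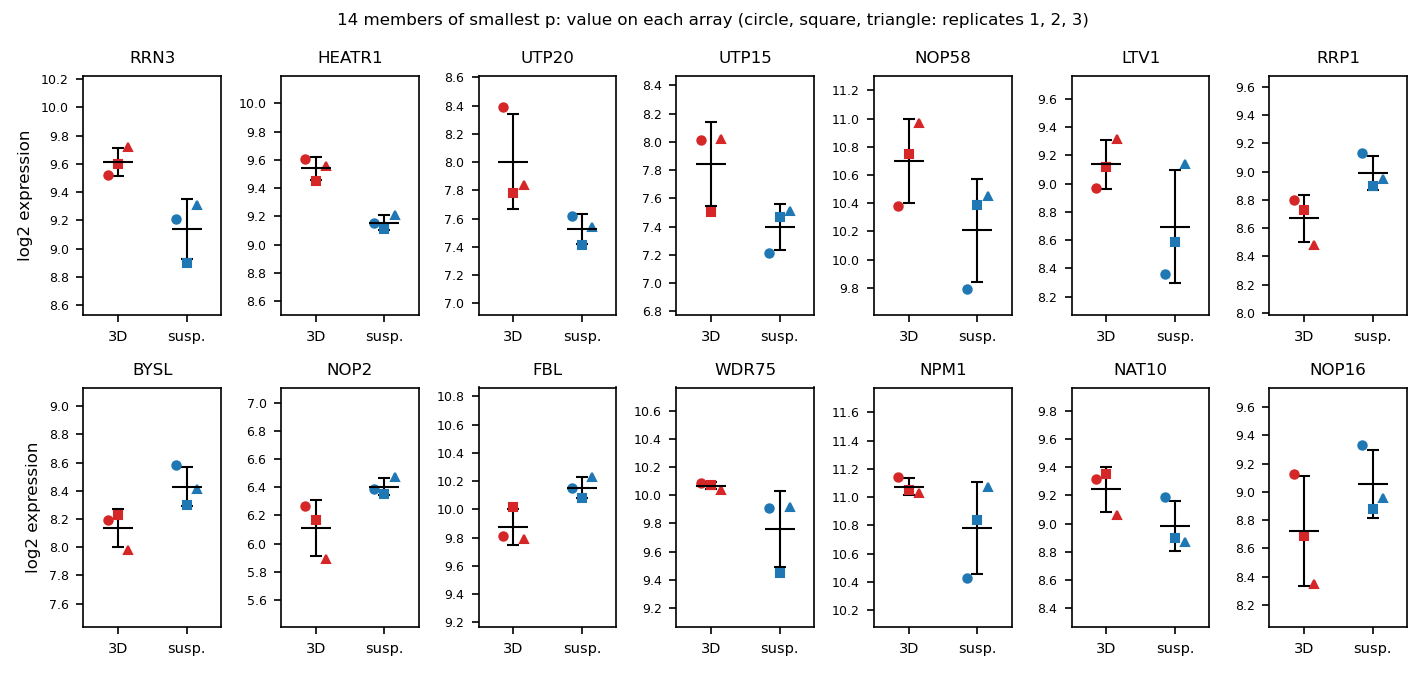
Log2 expression (vertical axes, each spanning the same width) on every array for the 14 genes of smallest unadjusted p, with 3D left and suspension right. Symbols mark replicate numbers, and bars are the mean and SD of 3 arrays. RRN3, HEATR1, UTP20 and WDR75 have all 3D values above suspension, and RRP1, BYSL, NOP2 and FBL all below.

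As MYC binds the E-box CACGTG together with MAX, this word was looked for in the 250 bases before the start sites of RefSeq (GRCh38.p14). It reads the same on both strands. Of the 52 genes 44 had a promoter in the table, and 8 of these held the word (18.2%), against 9.68% of 14250 genes of the array with a promoter. The windows below show an E-box, in capitals, in UTP20, the processome gene of highest difference, in NAT10, which was also higher in 3D, in UTP4, on the lower side of that role, and in the helicase gene DDX21. They are written 5′ to 3′ along the gene and lie at chr12:101280068-101280104 (+ strand) for UTP20, chr11:34105587-34105628 (+) for NAT10, chr16:69132606-69132648 (+) for UTP4 and chr10:68956589-68956646 (+) for DDX21.
UTP20: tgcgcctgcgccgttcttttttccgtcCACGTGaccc
NAT10: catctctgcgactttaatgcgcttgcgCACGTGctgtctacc
UTP4: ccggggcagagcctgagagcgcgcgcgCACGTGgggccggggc
DDX21: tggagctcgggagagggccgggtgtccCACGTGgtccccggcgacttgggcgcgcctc
The E-box starts 10, 15, 16 and 31 bases before the start site in these genes. The other 4 holders were LYAR, NOP10, UTP14A and UTP18. The 8 genes with the word had a median difference of 0.20, with 6 of 8 higher in 3D, and the 36 without it -0.02, with 17 of 36 higher. A match describes these letters only.

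MYC itself measured 9.72, 9.47 and 9.44 in 3D, against 10.03, 10.00 and 10.26 in suspension. All 3D values lay below all suspension values, with a difference of -0.55 ± 0.16 (SE), an unadjusted p of 0.00634 and an adjusted p of 0.385 (limma). In the fit with the block and means at or above 6 its adjusted p was 0.0111 (limma), where 3.78% of all genes were called lower. Without replicate 3 in both groups that fit gave a difference of -0.42 and an adjusted p of 0.197 (limma). The difference was -0.67 without replicate 1 and -0.56 without replicate 2 (limma, adjusted p 0.0164 and 0.00956). The 52 biogenesis genes had a median difference near 0 on the same arrays on which MYC measured lower in 3D. Any link between MYC and these genes was not tested.

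The factors of late 40S maturation had a median difference of -0.06, with 3 of 8 higher. LTV1, which guides the pre-40S particle through its last assembly steps, measured 8.97, 9.12 and 9.32 in 3D, against 8.36, 8.59 and 9.14 in suspension. In each replicate number the 3D array was higher, by 0.61, 0.53 and 0.18, and suspension replicate 3 lay inside the 3D range. The difference was 0.44 ± 0.21 (SE; limma, adjusted p 0.519), and 0.27 without suspension replicate 1. BYSL, bystin, a stable part of the early 40S particle, measured 8.19, 8.23 and 7.98 in 3D, against 8.58, 8.30 and 8.41 in suspension. Its groups were separate in the other direction, with a difference of -0.29 ± 0.16 (SE; limma, adjusted p 0.563).

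NOB1, the nuclease that makes the final cut of the small subunit RNA, had a difference of -0.24 ± 0.16 (SE), and was lower in 3D in all 3 replicate numbers. RRP12, an export factor, had -0.17 ± 0.26 and the largest SD within groups of the 52 genes, 0.42. It measured 6.32, 5.93 and 5.90 in 3D, against 6.79, 5.69 and 6.20 in suspension. The kinases RIOK1 and RIOK2 had 0.11 ± 0.17 and 0.09 ± 0.16, TSR1 had -0.03 ± 0.17 and PNO1 had -0.08 ± 0.17.

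Of the 9 measured 60S assembly factors 6 were lower in 3D, with a median difference of -0.20 and medians of -0.12, -0.19 and -0.22 in replicates 1, 2 and 3. The counts were the same after a further quantile normalization (median -0.25) and after centring (-0.18). The 42 other 60S genes measured, outside the 52, were balanced, with 21 higher, 21 lower and a median of -0.01. At an unadjusted p under 0.05 (limma) 4 were higher (9.52%, against 5.9% of all genes) and 0 lower (against 3.97%). RRP1, a nucleolar factor of 60S processing, measured 8.80, 8.73 and 8.48 in 3D, against 9.13, 8.90 and 8.95 in suspension. The groups were separate, and the difference was -0.32 ± 0.16 (SE; limma, adjusted p 0.537). NOP2, a cytosine methyltransferase of the large subunit RNA, measured 6.27, 6.17 and 5.89 in 3D, against 6.39, 6.35 and 6.47 in suspension. Its groups were separate as well, with a difference of -0.30 ± 0.16 (SE; limma, adjusted p 0.563), and -0.19 without 3D replicate 3.

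NOP16 had the lowest difference of all 52 genes, -0.33 ± 0.22 (SE; limma, adjusted p 0.617). It measured 9.13, 8.69 and 8.35 in 3D, against 9.33, 8.88 and 8.96 in suspension. Both arrays of replicate 1 were high, and the groups overlapped because 3D replicate 1 lay above suspension replicates 2 and 3. Without 3D replicate 3 the difference was -0.15. PES1, of the PeBoW complex that matures the large subunit RNA, had -0.25 ± 0.17, while WDR12, of the same complex, had 0.15 ± 0.16. RRP1B and RRS1 stood at -0.20 ± 0.19 and -0.17 ± 0.22, and GNL2, a nucleolar GTPase, and RRP15 at 0.12 ± 0.20 and 0.09 ± 0.15. Whether the 60S and the processome genes differ from each other was not tested, since the roles were compared with results of these arrays known.

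The 52 genes shared variation by replicate number in replicates 1 and 3, and little in replicate 2. After group means were subtracted, the deviations in 3D and in suspension correlated over the 52 genes at 0.596 for replicate 1, 0.0878 for replicate 2 and 0.669 for replicate 3, beside 0.521, 0.120 and 0.337 over all genes. These are descriptions across genes of the same arrays. In both groups replicate 1 was the highest array for 15 genes (28.8%, against 29.9% of the genes with means at or above 6) and the lowest for 5 (9.62%, against 23%). The largest positive deviations of replicate 1 from the other numbers were those of RRP12 (0.63), POLR1A (0.59), UTP4 (0.57) and UTP18 (0.56), and the largest negative ones those of NOP58 (-0.56), DDX10 (-0.53) and RRS1 (-0.51). Replicate 2 was the lowest in both groups for 13 genes (25%, against 13.2%) and the highest for 1 (1.92%, against 6.11%).

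**Figure D3:**
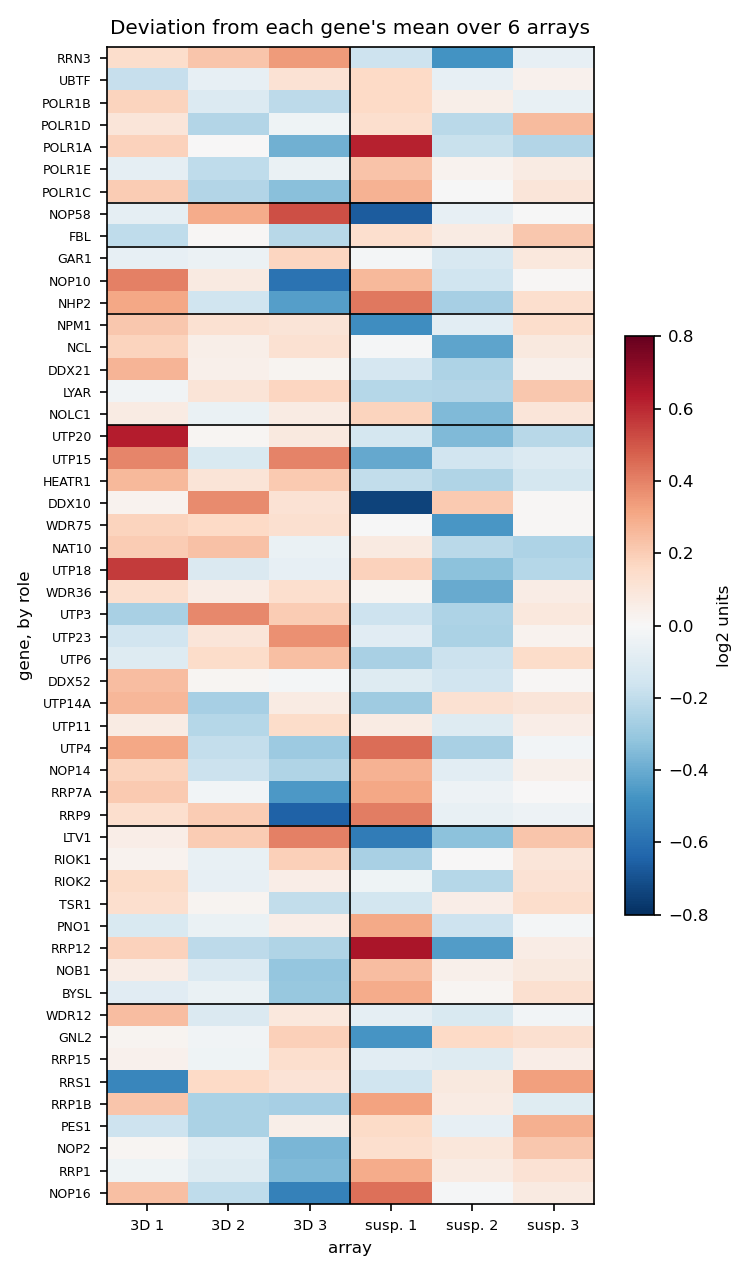
Deviation of each array from the gene's mean over the 6 arrays, in log2 units (colour; red is higher), for the 52 genes ordered by role, with 3D left and suspension right. UTP4, POLR1A, RRP12 and NOP16 are high in replicate 1 of both groups, and no role has 1 colour throughout either group.

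Genes of G2 and mitosis varied by replicate number on the same arrays. The median level of 29 such genes was 8.30, 9.35 and 9.47 in 3D replicates 1, 2 and 3, against 8.02, 8.90 and 9.30 in suspension. Their median difference was 0.21, with 22 higher and 7 lower in 3D, and it was 0.20, 0.31 and 0.20 by replicate number. With limma 0 of the 29 had an unadjusted p under 0.05 without the block. In the fit with the block and means at or above 6, 7 of the 29 were called higher and 0 lower, beside 10.6% and 3.78% of all genes. The share of the 29 called higher lay above that of all genes. The medians of the 52 biogenesis genes were 8.75, 8.61 and 8.46 in 3D, against 8.65, 8.51 and 8.77 in suspension. The mitotic genes were lowest in replicate 1 of both groups, while the biogenesis median was highest in replicate 1 in 3D and second in suspension. The part of cell cycle state in the differences was not tested.

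Once group means were removed, most pairs of biogenesis genes did not correlate closely over the 6 arrays. Of 1326 pairs, 72 (5.43%, against 4.43% of all pairs of genes with means at or above 6) correlated above 0.9 and 16 (1.21%, against 3.61%) below -0.9, with a median of 0.25. The closest pairs were RRP7A with NOB1 (0.995), NOB1 with NOP16 (0.994), NCL with WDR36 (0.988) and NOP14 with UTP4 (0.986). The most opposed were RRP1B with RRS1 (-0.991) and POLR1A with NOP58 (-0.969). All pairs share the same 6 arrays and, after the group means, 4 free values.

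The difference of a biogenesis gene varied with its place in the genome, as over the whole array. The 26 genes with more than 30.5 RefSeq genes within 500 kb had a median difference of -0.15, with 7 higher in 3D, and the 26 with fewer had 0.19, with 20 higher. Over all genes the corresponding medians, for more neighbours than the median gene and for as many or fewer, were -0.08 and 0.05. Across genes Spearman's rho with the number of neighbours was -0.535 for the 52 genes and -0.277 for all 17687. Gene span went the other way: rho was 0.337 for the 52 genes and 0.249 for all genes, and DDX10 and UTP20, the longest at 276 and 107 kb, had differences of 0.35 and 0.48.

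The processome genes had a median of 24 neighbours and a span of 33.9 kb, and the 60S genes 38 neighbours and 29.1 kb. After the trends on span and on neighbours were taken out of every array, RRN3, UTP15, UTP20 and HEATR1 kept unadjusted p under 0.05 (limma), with differences of 0.47, 0.43, 0.43 and 0.33. The rho with neighbours over the 52 genes was then -0.454. What part gene surroundings have in the differences was not tested beyond this.

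**Figure D4:**
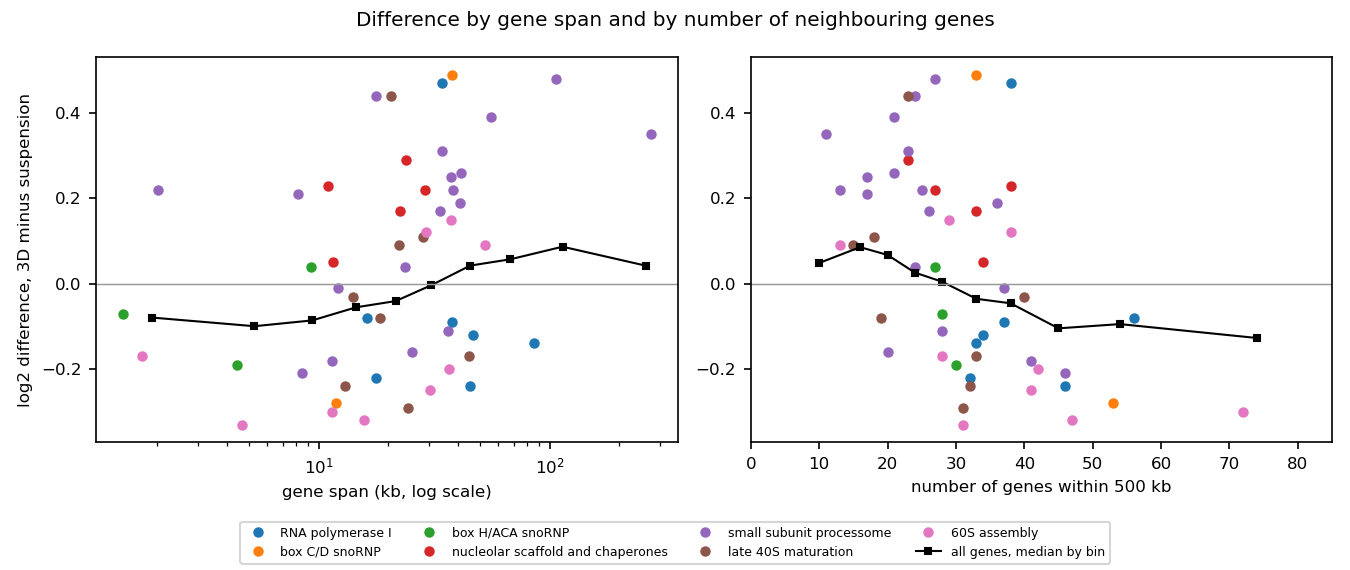
Log2 difference (3D minus suspension, vertical axis) of the 52 genes against gene span in kb (left, log scale) and against the number of RefSeq genes within 500 kb (right), coloured by role. The black line joins medians over all genes in bins of equal gene number. Biogenesis genes with few neighbours lie mostly above 0 and those with many mostly below.

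Outside the 52 genes, 122 of 132 other genes of the pathway were measured, and 58 were higher and 64 lower in 3D with a median of -0.02. With limma 0 passed over all genes. At an unadjusted p under 0.05 there were 18 (14.8%, against 9.87% of all genes), 11 higher and 7 lower. The numbers were 4 of 12 among other polymerase I genes, 2 of 12 for small nucleolar RNPs and their assembly, 4 of 24 for the processome, 1 of 8 for late 40S factors, 4 of 42 for 60S factors and 3 of 24 for the exosome and ribosomal RNA nucleases.

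The smallest p of these belonged to TTF1, the factor that terminates ribosomal RNA transcription. TTF1 measured 7.93, 7.93 and 7.86 in 3D, against 7.40, 7.22 and 7.12 in suspension. The groups were well apart, with a difference of 0.66 ± 0.15 (SE; limma, unadjusted p 0.00142, adjusted p 0.347). NOC3L, a 60S factor, had 7.72, 7.45 and 7.70 in 3D, against 6.82, 7.12 and 7.00 in suspension, a difference of 0.64 ± 0.16 (SE; limma, adjusted p 0.359).

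On the lower side PWP2, a core protein of the processome, had 6.96, 7.22 and 7.25 in 3D, against 7.88, 7.63 and 7.69 in suspension. Its difference was -0.58 ± 0.16 (SE; limma, adjusted p 0.380), while most measured processome genes among the 52 were on the higher side. POP7, of the RNase MRP and P complexes, had -0.58 ± 0.19, RPAP3, a chaperone of small nucleolar RNP assembly, 0.58 ± 0.20, and TCOF1, the treacle protein of the nucleolus, -0.45 ± 0.15, each with groups that did not overlap. Their adjusted p were 0.401 to 0.411 (limma). In the fit with the block and means at or above 6 all 6 of these genes passed, with adjusted p of 0.00306 for TTF1 to 0.0298 for TCOF1 (limma). With a replicate pair left out of that fit, TTF1 passed each time (limma, adjusted p 0.00322 to 0.0341), and each of the other 5 was lost at least once. Such fits have 1 residual degree of freedom and take nearly all of the spread from other genes. Passing them therefore does not measure how steady a gene itself is. Without replicate 1 the adjusted p was 0.0690 for NOC3L, 0.134 for PWP2, 0.168 for RPAP3 and 0.212 for TCOF1, and without replicate 3 it was 0.264 for POP7 and 0.132 for TCOF1 (limma). The full fit called 9 of the 118 other pathway genes it held higher and 6 lower, beside 10.6% and 3.78% of all genes.

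Genes of the proteins that the pathway assembles also had a median difference near 0. The 56 measured cytosolic ribosomal protein genes, paralogues included, had a median difference of -0.03, with 22 higher and 34 lower and 0 at an unadjusted p under 0.05 (limma). Their median varied by replicate number, at 0.00, 0.18 and -0.29. The 74 mitochondrial ribosomal protein genes, whose proteins a separate pathway assembles, had a median of -0.07. At an unadjusted p under 0.05 (limma) 2 were higher and 4 lower (8.11%, against 9.87% of all genes).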

How the data were processed

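RNA of 6 Jurkat samples was hybridised to Affymetrix whole-transcript arrays, per the labels' protocols. The authors deposited a log2 value for every probe set on every array, and RMA and the Transcriptome Analysis Console are named in the submitters' processing notes. Their versions, the probe annotation and the build are not given in the sources used here. A common distribution over arrays, as RMA usually sets, may mask a shift shared by all genes.

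Of 21448 probe sets, 17709 had 1 gene symbol, 0 several and 3739 none; all 17709 matched RefSeq (GRCh38.p14), which gave spans and neighbours. For 20 genes with over 1 probe set the brightest was kept, leaving 17687 genes. Per-sample columns left unused numbered 0. limma 3.58.1 (R 4.3.3), lmFit and eBayes, had no block and no filter, with 4 residual and 6.79 prior degrees of freedom, and was tested on simulated data. Plots used matplotlib 3.10.9.

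The biogenesis genes, roles, lists and alternatives were chosen with earlier results of these data known. Values per array are given for the 14 genes of smallest p. The extremes of each role and the 6 other pathway genes of smallest p are also named, some by difference and SE only. Other genes and arrays named for their spread were picked after values were seen. After group means were subtracted, arrays of replicate numbers 1, 2 and 3 correlated across conditions at 0.521, 0.120 and 0.337 over all genes. All lie over 0.1, so same-numbered samples were treated as pairs in the fits with a block, though not in the main fit. Number 2 met this only narrowly. Suspension replicate 2 correlated better with 3D replicate 3 (0.230), and 3D replicate 2 with suspension replicate 3 (0.149). With the block there were 2 residual and 9.78 prior degrees of freedom, and 25 prior for genes of mean at or above 6. With a replicate pair left out of the latter there was 1 residual degree of freedom. The prior ones were then 43 without replicate 1 and infinite without replicate 2 or replicate 3.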

Additional observations from a re-analysis of the deposited data

How the results depend on the processing

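The fits without a block called 0 genes of the array, and 0 biogenesis genes, under every alternative run, which were a filter at a mean of 6, quantile normalization once more, centring on array medians, an intensity trend, array weights, the mean of a gene's probe sets, removal of the span and neighbour trend, and leaving out each array. A fit with the replicate block called 16 genes higher and 0 lower, and 0 biogenesis genes. With the block and means at or above 6 there were 884 higher and 315 lower, and among biogenesis genes 5 and 0. Leaving out a pair from that last fit, a check added after seeing the data, gave 331 higher and 127 lower without replicate 1, 923 and 534 without replicate 2 and 369 and 37 without replicate 3, and 1 and 0, 3 and 1, and 0 and 0 biogenesis genes. The smallest difference it called had a size of 0.39.

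The median difference of the biogenesis genes, 0.04, moved by no more than the SD between replicate numbers (0.06, at the digits given) under every alternative run. The sign of that median turned with quantile normalization (-0.02) and without suspension replicate 2 (-0.01). With 1 array left out it ran from -0.01 to 0.09. Counts at an unadjusted p under 0.05 (limma), 4 higher and 0 lower, went from 1 to 6 higher and 0 to 1 lower with 1 array left out, and were 1 higher without 3D replicate 3 and 1 without suspension replicate 2. They were 1 lower with the block, 2 lower after quantile normalization, and 8 higher and 4 lower with the block and means at or above 6, where leaving out a pair gave 5 to 9 higher and 0 to 8 lower. Genes with separate groups, 4 above and 5 below, numbered 5 to 14 above and 5 to 11 below with 1 array left out, where fewer arrays make separation easier.

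Of 360 values for 20 named biogenesis genes under 18 alternatives, 7 turned in sign, all of 3 genes. GAR1 turned to -0.02 after quantile normalization and ranged from -0.04 to 0.09 with 1 array left out. NOLC1 turned to 0.00 (just under 0) after quantile normalization, ranged from -0.11 to 0.15 with 1 array left out, and was -0.07 in the paired, filtered fit without replicate 2. RRP9 ranged from -0.37 to 0.06. The causes were not tested. For 7 other named genes 0 of 126 values turned.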

Other observations

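Among 17635 other genes, the 3 whose values over the 6 arrays followed the median of the 52 biogenesis genes most closely were CCL11 (Pearson r 0.990, Spearman rho 0.943), MED27 (0.983, 0.943) and CRELD2 (0.980, 1). Without the 2 arrays farthest from the median of that measure, r was 0.976, 0.974 and 0.969. CCL11 had a mean level of 3.28, far under 6, so its order over the arrays rests on a dim probe set. These are the highest of many correlations over 6 arrays and are given as a description. MED27, a Mediator subunit, measured 8.88, 8.63 and 8.39 in 3D replicates 1, 2 and 3, against 8.65, 8.51 and 8.83 in suspension, and its difference was -0.03 (limma, adjusted p 0.969).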
